A study of Homo sapiens with 18 samples.

Results

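Levels of mRNA for the sensors of double-stranded RNA were followed in ZR-75-1, a human cell line from a luminal breast cancer, with ADAR knocked down and in its control. The set holds 7 genes, taken by symbol from the 60252 gene IDs listed for each of the 18 libraries. They are EIF2AK2 (the kinase PKR), IFIH1 (MDA5), RIGI (RIG-I, also named DDX58), DHX58 (LGP2), MAVS, ZBP1 and TLR3. All 7 symbols matched 1 gene ID each, and 6 of the 7 genes passed the filter on low counts and were tested. ZBP1 did not pass it, with 42 counts over all 18 libraries. On hg19 the genes lie at chr2:37326353-37384665 for EIF2AK2 (ENSG00000055332.16_2, minus strand), chr2:163123584-163175194 for IFIH1 (ENSG00000115267.5_1, minus strand), chr9:32455300-32526206 for RIGI (ENSG00000107201.9_1, minus strand), chr17:40253422-40264732 for DHX58 (ENSG00000108771.12_2, minus strand), chr20:3827446-3856770 for MAVS (ENSG00000088888.17_1, plus strand), chr20:56178902-56195632 for ZBP1 (ENSG00000124256.14_1, minus strand) and chr4:186990065-187009227 for TLR3 (ENSG00000164342.12_1, plus strand), from GENCODE 44 lifted to that build.

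Long double-stranded RNA in the cytoplasm is a sign of viral replication, but cells also make such RNA themselves, above all from inverted Alu repeats in their own transcripts. ADAR edits adenosine to inosine in these duplexes, and unedited self RNA is a known ligand of MDA5, PKR and ZBP1. RIG-I and MDA5 signal through the mitochondrial adaptor MAVS to the kinase TBK1 and the factor IRF3, TLR3 reports from endosomes through TICAM1, and PKR halts translation by phosphorylating the initiation factor eIF2 alpha. Most of these sensors are themselves interferon-stimulated genes.

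The 6 groups of 3 libraries came from ADAR knockdown and control cells. Both lines were sampled without treatment, with the solvent DMSO and with triptolide at 100 nM, a compound that blocks transcription initiation by RNA polymerase II. Treatment lasted 16 h in medium with 1% serum, after growth in 10% serum. Both lines are ZR-75-1 derivatives, the control being labelled SHC, and the libraries are numbered as biological replicates 1 to 3. A single knockdown line is named in the labels, so an effect of the ADAR knockdown and any other difference between the lines cannot be told apart. The p-values measure the spread between these libraries, and nothing in the labels says how the cultures of the 3 replicate numbers differ. In RNA from whole cultures, fewer cells that express a gene and less RNA per cell cannot be told apart.

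Promoter sequences of the sensors are shown because 5 of them, like core interferon-stimulated genes, were lower in replicate 3 than in replicate 1. Any part of these sequences in the levels was not tested. Windows of 270 bases, from 250 before to 20 after the annotated start, were taken from RefSeq on GRCh38.p14, where 5 of the 7 genes had an entry. They are EIF2AK2 at chr2:37156961-37157230 on the minus strand, IFIH1 at chr2:162318665-162318934 on the minus strand, RIGI at chr9:32526177-32526446 on the minus strand, MAVS at chr20:3846584-3846853 on the plus strand and TLR3 at chr4:186068906-186069175 on the plus strand. DHX58 and ZBP1 are named only. Sequences run 5′ to 3′ on the strand of the gene, and capitals mark every match, on either strand, of GAAANNGAAA or GAAANGAAA, a pair of spaced repeats of the core bound by interferon regulatory factors.
EIF2AK2: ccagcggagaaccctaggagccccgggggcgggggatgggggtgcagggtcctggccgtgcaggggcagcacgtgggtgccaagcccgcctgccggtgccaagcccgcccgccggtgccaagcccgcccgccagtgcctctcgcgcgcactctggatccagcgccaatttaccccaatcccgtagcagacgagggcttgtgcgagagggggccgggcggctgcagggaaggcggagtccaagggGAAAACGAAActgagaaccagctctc
IFIH1: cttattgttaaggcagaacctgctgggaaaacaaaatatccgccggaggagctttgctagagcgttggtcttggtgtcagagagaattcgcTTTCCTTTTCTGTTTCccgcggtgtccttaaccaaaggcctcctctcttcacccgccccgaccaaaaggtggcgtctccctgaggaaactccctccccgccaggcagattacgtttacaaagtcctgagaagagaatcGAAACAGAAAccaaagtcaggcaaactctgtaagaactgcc
RIGI: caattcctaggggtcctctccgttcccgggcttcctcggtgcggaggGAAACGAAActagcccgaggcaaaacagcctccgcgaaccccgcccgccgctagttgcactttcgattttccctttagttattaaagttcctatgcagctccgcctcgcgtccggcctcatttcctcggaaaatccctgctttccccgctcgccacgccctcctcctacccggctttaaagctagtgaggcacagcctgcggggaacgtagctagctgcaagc
MAVS: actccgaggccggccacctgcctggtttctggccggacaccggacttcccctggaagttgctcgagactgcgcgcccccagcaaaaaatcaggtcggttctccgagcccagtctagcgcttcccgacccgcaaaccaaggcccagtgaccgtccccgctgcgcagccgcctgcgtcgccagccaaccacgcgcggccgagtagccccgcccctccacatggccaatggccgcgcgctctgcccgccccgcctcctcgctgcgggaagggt
TLR3: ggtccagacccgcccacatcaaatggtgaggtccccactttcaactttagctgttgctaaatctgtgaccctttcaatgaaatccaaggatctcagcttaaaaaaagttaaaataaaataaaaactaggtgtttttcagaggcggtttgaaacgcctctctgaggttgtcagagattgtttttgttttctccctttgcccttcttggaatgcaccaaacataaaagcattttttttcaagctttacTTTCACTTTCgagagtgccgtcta
EIF2AK2 held 1 match of the form with 2 spacer bases, from 6 bases before its start. IFIH1 held 3, of which 2 overlapped each other at 159 and 153 bases before the start and lay on the opposite strand, and the third began at 21 bases before it. TLR3 held 1 on the opposite strand, from 4 bases before its start. RIGI held 1 match of the form with 1 spacer base, at 203 bases before its start, and the MAVS window held none of either form. Of 35116 promoter windows of the same length, 3.3% held the first form, 2.9% the second and 5.93% either. Among 24 of 30 core interferon-stimulated genes with an entry, 18 held either form. A match is a run of letters and not a measured binding site.

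Counts in genes came to 26.7e6 to 35.7e6 per library, and tallies of reads not assigned to a single gene made up 24.9 to 35.4% of all. These included reads in no annotated feature (4.99 to 11.8%) and reads ambiguous between genes (5.76 to 8.37%). The share of counts in mitochondrial ribosomal RNA was 42.7 to 55.2% in triptolide libraries, against 20.2 to 37.1% in untreated and DMSO libraries. All 10 luminal markers reached a mean of 1 CPM (counts per 1e6 counts, scaled by the TMM method). The defining leukocyte genes PTPRC and CD3E averaged 0.0688 and 0.0618 CPM. ADAR, the target of the knockdown, stood at 352, 339 and 195 CPM in untreated knockdown replicates 1 to 3, against 476, 665 and 297 CPM in untreated control replicates. With DMSO it stood at 293, 357 and 217 CPM in knockdown and 458, 665 and 280 CPM in control cells, and with triptolide at 110, 164 and 142 CPM in knockdown and 352, 467 and 319 CPM in control cells. Over the 3 treatments its log2 difference of knockdown minus control was -0.95 ± 0.19 (SE, edgeR adjusted p = 0.0188). That call ended without replicate 1, 2 or 3 (adjusted p = 0.407, 0.219 and 0.0609). With the replicate number as a block it was -0.91 ± 0.10 (adjusted p = 8.1e-06) and held without each of them. In single treatments the ADAR difference was -0.70 ± 0.33 untreated, -0.69 ± 0.33 with DMSO and -1.46 ± 0.34 with triptolide. Without the block edgeR called none of these. With it, ADAR was called with triptolide (adjusted p = 0.000192), but not untreated (0.137) or with DMSO (0.144).

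Sensor mRNAs were unequal in these cells. Per kilobase of exon and over the 12 untreated and DMSO libraries, EIF2AK2 averaged 13 CPM per kb and MAVS 11.3, with IFIH1 at 9.74, DHX58 at 7.14, RIGI at 4.72, TLR3 at 0.427 and ZBP1 at 0.00669 CPM per kb. The endosomal receptor was below the kinase, the helicases and the adaptor in level per kilobase. EIF2AK2 exceeded MAVS in 6 of 12 libraries, MAVS exceeded IFIH1 in 7 and IFIH1 exceeded DHX58 in 9, so these neighbours were not separated beyond their spread. Per kilobase, DHX58 exceeded RIGI, RIGI exceeded TLR3 and TLR3 exceeded ZBP1 in 12 of 12. The order of DHX58 and RIGI rested on the exon lengths used, 3.824 kb for DHX58 and 10.35 kb for RIGI. Without division by length, the mean over the 12 libraries was 27.3 CPM for DHX58 and 48.9 CPM for RIGI, and single libraries went either way. The annotation release behind the counts is not given, so the exons counted may differ from these lengths. Counts behind a single library's value ranged from 1740 to 6226 for MAVS and from 976 to 8575 for EIF2AK2, but from 4 to 245 for TLR3.

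**Figure D1:**
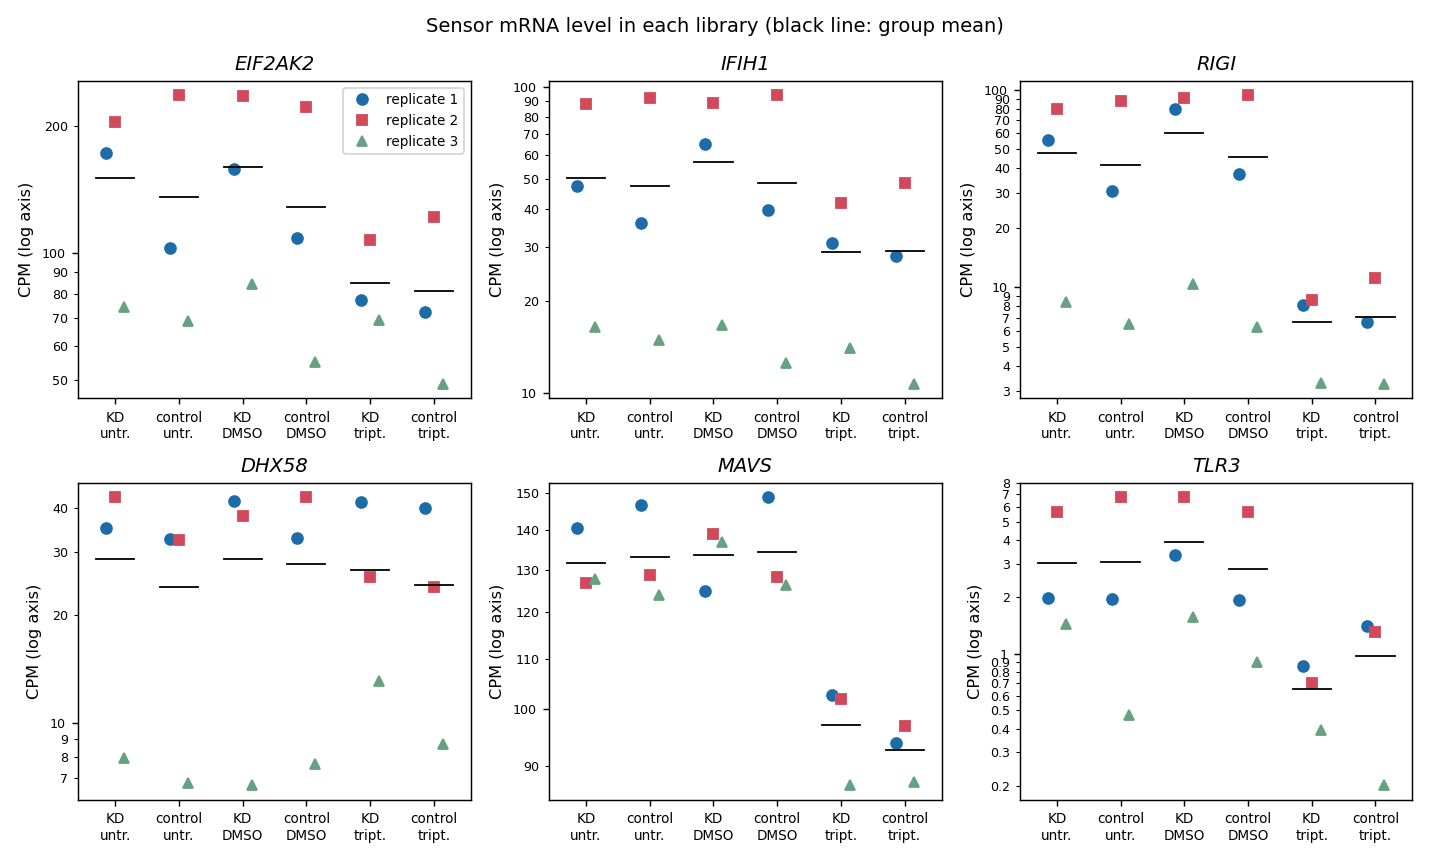
Level of each tested sensor in all 18 libraries, in CPM on a log axis that differs between panels. Colours and shapes give the replicate number and black lines the group mean of 3 libraries. Replicate 3 was the lowest in all 6 groups for every sensor shown except MAVS, where it was the lowest in 4.

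The spread within groups followed the replicate number. EIF2AK2, which encodes the kinase PKR, gave 173, 205 and 74.3 CPM in untreated knockdown replicates 1 to 3, and 103, 237 and 68.8 CPM in untreated control replicates. With DMSO it gave 159, 237 and 84.4 CPM in knockdown and 109, 222 and 55.2 CPM in control cells. Replicate 2 was the highest and replicate 3 the lowest of its group in 6 of 6 groups, and the lines overlapped. Over untreated and DMSO cells, the mean of replicate 1 was 1.92 times and that of replicate 2 was 3.19 times the mean of replicate 3. The pseudogene ARL14EPP1 overlaps 3.63% of the exonic bases of EIF2AK2 on the opposite strand, with a mean of 4 counts per library.

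IFIH1 encodes MDA5, the helicase that forms filaments along long duplexes. It stood at 47.4, 87.8 and 16.4 CPM in untreated knockdown replicates 1 to 3, against 36, 91.7 and 14.9 CPM in untreated control cells. DMSO-treated knockdown cells gave 65.3, 88.8 and 16.7 CPM, against 39.6, 93.8 and 12.6 CPM in DMSO-treated control cells. Again replicate 2 was the highest and replicate 3 the lowest in 6 of 6 groups, with replicate 2 at 5.98 times and replicate 1 at 3.11 times the level of replicate 3.

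RIGI encodes the helicase that reads short duplexes with a 5′ triphosphate. Its levels were 55.6, 79.9 and 8.46 CPM in untreated knockdown replicates 1 to 3, against 30.5, 87.4 and 6.5 CPM in untreated control cells. With DMSO they were 79.7, 90.9 and 10.3 CPM in knockdown cells, against 37.4, 93.5 and 6.32 CPM in control cells. No other sensor spanned as wide a range between replicates: replicate 2 was at 11.1 times and replicate 1 at 6.43 times the level of replicate 3. In GENCODE 44 a further gene model overlaps 43.2% of the exonic bases of RIGI on the same strand, but it is not among the IDs listed.

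DHX58 encodes LGP2, the family member without signalling domains of its own, which modulates MDA5 and RIG-I. It gave 35.2, 42.8 and 7.98 CPM in untreated knockdown replicates 1 to 3 and 32.7, 32.5 and 6.75 CPM in untreated control replicates. In DMSO its values were 41.8, 37.9 and 6.67 CPM in knockdown and 32.9, 42.8 and 7.68 CPM in control cells. Replicates 1 and 2 lay close together here, at 4.9 and 5.37 times the level of replicate 3.

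TLR3, the endosomal receptor, gave 1.98, 5.63 and 1.43 CPM in untreated knockdown replicates 1 to 3, against 1.96, 6.76 and 0.47 CPM in untreated control replicates. With DMSO it gave 3.35, 6.77 and 1.56 CPM in knockdown and 1.94, 5.62 and 0.903 CPM in control cells. Replicate 2 stood at 5.67 times the level of replicate 3, and replicate 1 at 2.11 times.

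MAVS, the shared adaptor of RIG-I and MDA5, was different. It gave 141, 127 and 128 CPM in untreated knockdown replicates 1 to 3, 147, 129 and 124 CPM in untreated control replicates, 125, 139 and 137 CPM in DMSO knockdown and 149, 128 and 126 CPM in DMSO control replicates. All 12 libraries lay between 124 and 149 CPM, and replicates 1 and 2 were at 1.09 and 1.02 times the level of replicate 3.

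A test of the replicate number across all groups called 5 of the 6 tested sensors, against 60.7% of the 21285 genes tested. The log2 difference of replicate 3 minus replicate 1 was -0.73 for EIF2AK2 (edgeR F test, adjusted p = 2.88e-07), -1.49 for IFIH1 (8.66e-10), -2.22 for RIGI (1.15e-07), -2.16 for DHX58 (1.51e-08) and -1.28 for TLR3 (3.71e-06), beside a median of -0.07 over all genes. MAVS, at -0.14, was not called (adjusted p = 0.288). All 30 core interferon-stimulated genes were called as well, each lower in replicate 3 than in replicate 1, at a median of -2.81. Their summed level was 417 to 729 CPM in replicate 3 libraries, against 2110 to 3710 CPM in replicate 1 and 2210 to 3630 CPM in replicate 2 libraries. The part of interferon signalling in the sensor differences was not tested.

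Shares of the sum of squares of log2(CPM + 1) over the 18 libraries put numbers on this. Replicate number held 92.4% of it for DHX58, 86.2% for IFIH1, 67.3% for EIF2AK2, 49.2% for RIGI, 47.7% for TLR3 and 5.29% for MAVS, beside a median of 23.1% over all genes. Treatment held 86.3% for MAVS, 41.8% for RIGI and 35.6% for TLR3, but 0.094% for DHX58. The line held at most 3.17% for any of the 6, the value of EIF2AK2, beside a median of 1.06% over all genes.

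**Figure D2:**
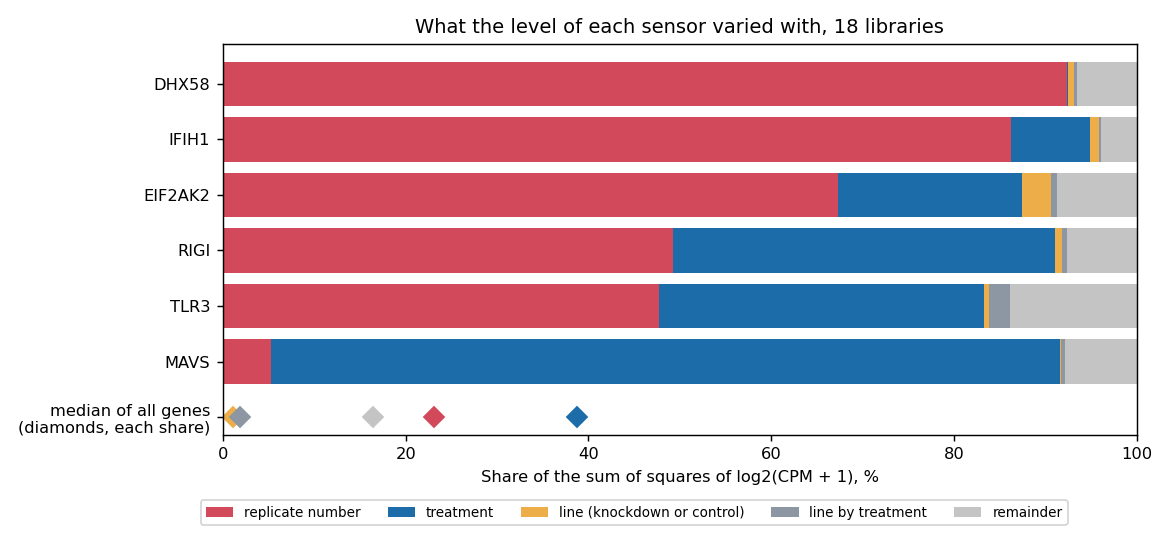
Share of the sum of squares of log2(CPM + 1) of each sensor held by replicate number, treatment, line and their remainder, over 18 libraries, with the median of each share over all genes as diamonds. Replicate number took 92.4% for DHX58, and treatment took 86.3% for MAVS.

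ZBP1, a sensor of Z-form nucleic acids that can start necroptosis, was near the limit of detection. Counts of 0, 1 and 0 were found in untreated knockdown replicates 1 to 3, 3, 3 and 0 in untreated control, 1, 4 and 0 in DMSO knockdown and 1, 2 and 0 in DMSO control replicates. Triptolide libraries held 3, 5 and 5 counts in knockdown and 9, 0 and 5 counts in control cells. That makes 27 counts in 6 triptolide libraries and 15 counts in the 12 others, and 6 libraries had none. A count of 0 in a library allows up to 3 counts.

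The knockdown was compared with control to ask whether loss of the editing enzyme goes with other levels of the sensors of its substrate. By edgeR, 0 of 6 tested sensors were called in untreated cells (0.0987% of all genes were called), 0 with DMSO (0.094% of all genes) and 0 with triptolide (0.0658% of all genes). Over the mean of the 3 treatments 0 of 6 were called as well, beside 0.836% of all genes. At an unadjusted p under 0.05 the count was 0 in each of the 4, beside 568, 507, 643 and 1239 of 21285 genes. DESeq2 called 0 sensors, beside 54, 43, 40 and 311 genes in the same order. Pairing libraries of equal replicate number gave 0 in each as well, beside 0.578%, 0.606%, 0.644% and 3.39% of all genes. In single treatments ADAR itself was not called without the block, and with it under triptolide only.

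The mean log2 difference of knockdown minus control over the 3 treatments was 0.17 ± 0.31 (SE) for EIF2AK2, 0.10 ± 0.45 for IFIH1, 0.18 ± 0.55 for RIGI, 0.15 ± 0.45 for DHX58, 0.01 ± 0.09 for MAVS and -0.05 ± 0.49 for TLR3. With the replicate number as a block, SEs were smaller: EIF2AK2 had 0.27 ± 0.11 (unadjusted p = 0.0271, adjusted p = 0.28), IFIH1 0.21 ± 0.11, RIGI 0.31 ± 0.20, DHX58 0.17 ± 0.13, MAVS 0.02 ± 0.07 and TLR3 0.13 ± 0.24. The blocked EIF2AK2 difference passed without replicate 2, at an adjusted p of 0.0428. A difference that misses the threshold does not show that the lines were alike, and the SEs of MAVS leave far less room than those of RIGI or TLR3.

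Ratios of knockdown to control within a replicate number were uneven. Over the 6 sensors and 3 treatments they were above 1 in 15 of 18 cases in replicate 1 and 16 of 18 in replicate 3, but in 6 of 18 in replicate 2. The sensors share the same library pairs, so these cases are not independent. Ratios above 1 were not counted over all genes, so an offset of whole libraries cannot be told apart from a trait of the sensors. RIGI had ratios of 1.82, 0.914 and 1.3 untreated and 2.13, 0.973 and 1.63 with DMSO in replicates 1, 2 and 3. IFIH1 had 1.31, 0.958 and 1.1 untreated and 1.65, 0.947 and 1.33 with DMSO. For both helicases, replicates 1 and 3 lay above 1 and replicate 2 below it in all 3 treatments. EIF2AK2 had 1.68, 0.866 and 1.08 untreated and 1.46, 1.07 and 1.53 with DMSO. MAVS ratios stayed between 0.838 and 1.09.

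**Figure D3:**
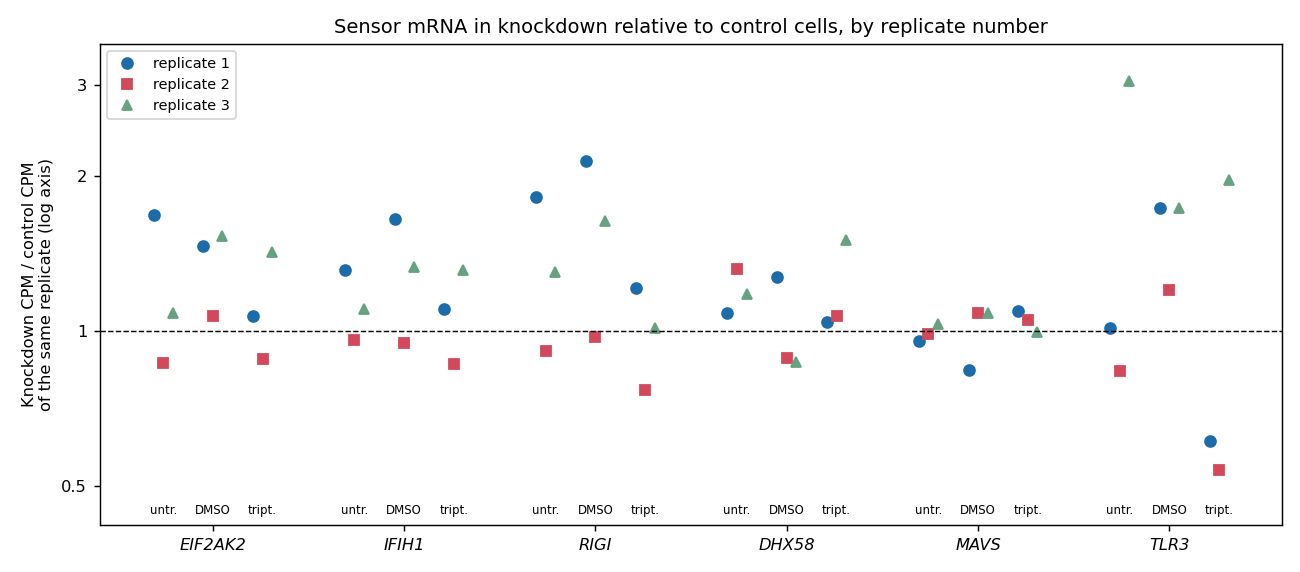
Ratio of knockdown to control CPM for each sensor, replicate number and treatment, on a log axis with a dashed line at 1. Replicate 2 lies above 1 in 6 of 18 cases, against 15 of 18 for replicate 1 and 16 of 18 for replicate 3. The sensors share the same library pairs, so the cases are not independent.

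Triptolide was compared with DMSO to ask which sensor mRNAs remain after 16 h of blocked transcription. RIGI stood at 8.11, 8.6 and 3.29 CPM in triptolide knockdown replicates 1 to 3, against 79.7, 90.9 and 10.3 CPM with DMSO. In control cells it stood at 6.69, 11.2 and 3.26 CPM with triptolide, against 37.4, 93.5 and 6.32 CPM with DMSO. Triptolide libraries thus retained 10.2, 9.46 and 31.8% of the DMSO level in knockdown replicates 1 to 3 and 17.9, 12 and 51.5% in control replicates, so the drop was shallowest in replicate 3, where RIGI was already low. The groups did not overlap in knockdown cells, and overlapped in control cells through the DMSO library of replicate 3.

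TLR3 fell to 0.856, 0.701 and 0.393 CPM in triptolide knockdown cells, against 3.35, 6.77 and 1.56 CPM with DMSO, and the groups did not overlap. In control cells TLR3 gave 1.4, 1.31 and 0.2 CPM with triptolide, against 1.94, 5.62 and 0.903 CPM with DMSO. These triptolide values rest on 4 to 33 counts per library. MAVS fell to 103, 102 and 86.7 CPM with triptolide in knockdown cells, against 125, 139 and 137 CPM with DMSO. It fell to 93.8, 97 and 87.2 CPM with triptolide in control cells, against 149, 128 and 126 CPM with DMSO. In neither line did the MAVS groups overlap. Groups that did not overlap, with triptolide lower, were found for 24.7% of all genes in knockdown and 22.2% in control cells.

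EIF2AK2 gave 77.4, 107 and 69.3 CPM with triptolide in knockdown cells, against 159, 237 and 84.4 CPM with DMSO, and in control cells 72.3, 122 and 48.9 CPM with triptolide, against 109, 222 and 55.2 CPM with DMSO. IFIH1 gave 30.9, 41.8 and 14.1 CPM with triptolide in knockdown cells, against 65.3, 88.8 and 16.7 CPM with DMSO, and in control cells 28, 48.6 and 10.7 CPM with triptolide, against 39.6, 93.8 and 12.6 CPM with DMSO. In both genes every triptolide library lay below the DMSO library of its own number, while the groups overlapped. DHX58 did not follow: it gave 41.4, 25.6 and 13.1 CPM with triptolide in knockdown cells, against 41.8, 37.9 and 6.67 CPM with DMSO. In control cells DHX58 gave 39.9, 24 and 8.72 CPM with triptolide, against 32.9, 42.8 and 7.68 CPM with DMSO. Within replicate numbers, 33 of 36 ratios of triptolide to DMSO lay below 1, 30 of 30 for the other 5 sensors and 3 of 6 for DHX58. DHX58 was set apart after its values were seen. The sensors share the same library pairs, so these ratios are not independent, and ratios below 1 were not counted over all genes.

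**Figure D4:**
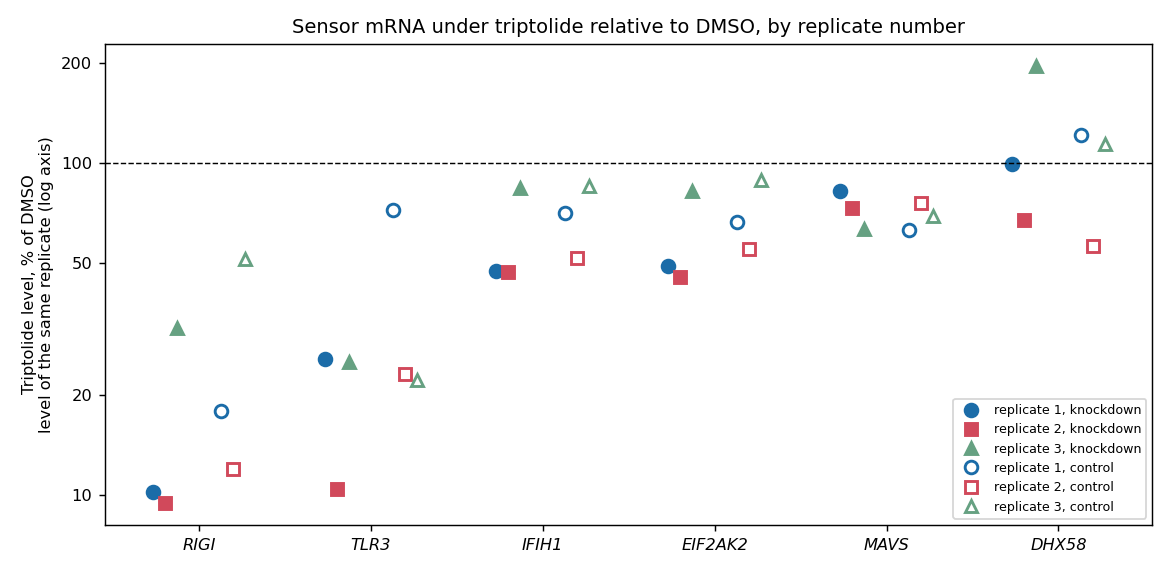
Level of each sensor with triptolide as a percentage of the DMSO level of the same replicate number, on a log axis with a dashed line at 100%. Filled symbols are knockdown and open symbols control cells. RIGI lies between 9.46 and 51.5%, and DHX58 between 56.1 and 196%.

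In knockdown cells edgeR called 3 of the 6 sensors lower with triptolide than with DMSO, beside 18.9% of all genes called lower. They were RIGI at a log2 difference of -3.18 ± 1.04 (SE, adjusted p = 0.024), TLR3 at -2.59 ± 0.92 (0.0362) and MAVS at -0.46 ± 0.15 (0.0235). In control cells it called 1 of 6, MAVS at -0.54 ± 0.15 (adjusted p = 0.0116), beside 16% of all genes called lower. There RIGI had -2.70 ± 1.02 (adjusted p = 0.0538) and TLR3 -1.53 ± 0.89 (0.206), and without DMSO replicate 2 they had -1.63 and -0.54. EIF2AK2 had -0.92 ± 0.53 in knockdown and -0.67 ± 0.53 in control cells, IFIH1 had -0.98 ± 0.79 in knockdown and -0.74 ± 0.79 in control cells, and DHX58 had -0.11 ± 0.77 in knockdown and -0.20 ± 0.77 in control cells. Without DMSO replicate 2, where EIF2AK2 and IFIH1 were highest, their values were -0.54 and -0.52 in knockdown and -0.01 and 0.16 in control cells. These fits kept triptolide replicate 2 and so broke the pair. With the block and without all of replicate 2, EIF2AK2 and IFIH1 had -0.66 and -0.71 in knockdown and -0.42 and -0.40 in control cells. RIGI and TLR3 then had -1.83 and -0.95 in control cells. With all libraries and no block, the median of the 6 was -0.95 in knockdown and -0.70 in control cells, beside medians of 0.04 and 0.03 over all genes.

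Pairing by replicate number raised the count to 5 of 6 in each line, all lower and all but DHX58, beside 28.1% of all genes called lower in knockdown and 26% in control cells. Blocked log2 differences in knockdown cells were -2.82 ± 0.36 for RIGI (adjusted p = 2.01e-06), -2.43 ± 0.42 for TLR3 (6.69e-05), -0.80 ± 0.19 for IFIH1 (0.0012), -0.78 ± 0.19 for EIF2AK2 (0.00189) and -0.47 ± 0.11 for MAVS (0.00155). In control cells they were -2.30 ± 0.37 for RIGI (adjusted p = 3.02e-05), -1.39 ± 0.41 for TLR3 (0.00815), -0.59 ± 0.19 for IFIH1 (0.0136), -0.56 ± 0.19 for EIF2AK2 (0.0203) and -0.54 ± 0.11 for MAVS (0.000527). DHX58 had 0.15 ± 0.23 in knockdown cells (adjusted p = 0.604) and -0.13 ± 0.23 in control cells (0.662). The blocked calls of RIGI held in both lines without any 1 replicate number. In knockdown cells the blocked MAVS call ended without replicate 3 (adjusted p = 0.06). In control cells that of EIF2AK2 ended without replicate 1 (0.0833) or 2 (0.0975), and those of IFIH1 and TLR3 ended without replicate 2 (0.0917 and 0.0996).

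The calls without the block depended on single libraries. In knockdown cells RIGI lost its call without DMSO replicate 1 or 2 (adjusted p = 0.0534 and 0.0631) and without triptolide replicates 1, 2 or 3 (0.0576, 0.0532 and 0.081). TLR3 lost it without DMSO replicates 1 or 2 (0.0504 and 0.135) and without triptolide replicates 1, 2 or 3 (0.0668, 0.0817 and 0.108). MAVS lost its call in knockdown cells without DMSO replicates 2 or 3 (0.0643 and 0.0593) or triptolide replicate 3 (0.08), and in control cells without DMSO replicate 1 (0.0543). These values are relative to the other RNAs in a library: scaling to total counts moves the median of all genes to -0.67 in knockdown and -0.60 in control cells, and scaling to mitochondrial mRNAs to -1.36 and -0.79. The summed leukocyte markers were 11.1 to 19.4 CPM with triptolide and 4.63 to 7.85 CPM with DMSO in knockdown cells. In control cells they were 9.73 to 18.8 CPM with triptolide and 5.36 to 8.49 CPM with DMSO. Of the 5 leukocyte markers tested, CD14, ITGAM and NKG7 were called higher with triptolide in both lines. Of 10 luminal markers 4 were called lower in both lines (ESR1, FOXA1, GATA3 and XBP1), and of 4 tested stromal markers COL3A1 was called higher in both. Of all genes, 16.7% were called higher and 18.9% lower in knockdown cells, and 14.9% higher and 16% lower in control cells. PTPRC had 30 counts and CD3E 28 counts over all 18 libraries. The part of the mitochondrial ribosomal share and of these 3 marker lists in the sensor levels was not tested.

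The difference between the lines in their response to triptolide was tested directly. None of the 6 sensors was called for this interaction by edgeR, and 0 of 21285 genes were (0% of all genes), with 203 genes and 0 sensors at an unadjusted p under 0.05. DESeq2 called 0 sensors and 1 gene, and the blocked fit called 0 sensors and 1 gene (0.0047%). The difference farthest from 0 was that of TLR3, at -1.06 ± 1.25 (SE), and -1.04 ± 0.60 with the block (unadjusted p = 0.0967). RIGI had -0.48 ± 1.37, EIF2AK2 -0.25 ± 0.75, IFIH1 -0.24 ± 1.11, DHX58 0.09 ± 1.09 and MAVS 0.08 ± 0.21.

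DMSO itself was set against untreated cells as the vehicle control. By edgeR, 0 of 6 sensors were called in knockdown and 0 of 6 in control cells, with and without the block, beside 0% of all genes in either line. At an unadjusted p under 0.05 there were 0 sensors in each line, beside 208 genes in knockdown and 121 in control cells, and DESeq2 called 0 sensors. Ratios of DMSO to untreated share library pairs across sensors and were not counted over all genes. They were above 1 in 14 of 18 cases in knockdown and 11 of 18 in control cells. For RIGI they were 1.43, 1.14 and 1.22 in knockdown and 1.22, 1.07 and 0.973 in control replicates 1 to 3.

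The genes around the sensors were described as lists. With triptolide 18.9% of all genes were called lower and 16.7% higher in knockdown cells, and 16% lower and 14.9% higher in control cells. With the block 28.1% were lower and 29.1% higher in knockdown cells, and 26% lower and 26.1% higher in control cells. Of 13 regulators of the helicases, 5 were lower and 2 higher with triptolide in knockdown cells, and 4 lower and 1 higher in control cells. RNF125, a ubiquitin ligase that marks RIG-I and MDA5 for degradation, had log2 differences of -2.14 ± 0.48 in knockdown (edgeR adjusted p = 0.00238) and -2.28 ± 0.51 in control cells (0.00265). TRIM65, a ligase that activates MDA5, had -1.80 ± 0.34 in knockdown and -1.57 ± 0.34 in control cells, where its call ended without replicate 3 (adjusted p = 0.0529). PPP1CC, a catalytic subunit of the phosphatase that removes inhibitory phosphates from both helicases, and ZCCHC3, a co-sensor of RIG-I and MDA5, were lower in both lines, and CYLD, a deubiquitinase, in knockdown cells. In control cells the PPP1CC call ended without replicate 2 (0.0773) and the ZCCHC3 call without replicate 3 (0.064), and in knockdown cells the CYLD call ended without DMSO replicate 2 (0.0684) or triptolide replicate 1 (0.0943). ZC3HAV1, an antiviral protein that binds CpG-rich RNA, was called higher in both lines and PPP1CA in knockdown cells, but scaling to total counts turned the knockdown values of both genes to -0.10 and -0.02. Leaving out DMSO replicate 1 in knockdown cells also ended both calls (0.138 for ZC3HAV1 and 0.106 for PPP1CA), as leaving out DMSO replicate 1 in control cells ended that of ZC3HAV1 (0.0625), which also ended there with scaling to total counts (0.796). With the block NLRX1, an inhibitor of MAVS, was lower in both lines, the RIG-I cofactor DDX60 and the RIG-I ligase RNF135 were lower in knockdown cells, CYLD was also lower in control cells, and PPP1CA and NLRC5 were also higher in control cells. The list's median was -0.81 in knockdown and -0.52 in control cells.

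Of 17 genes of signalling downstream of the sensors, 6 were lower and 0 higher with triptolide in each line, beside 18.9% of all genes lower in knockdown and 16% in control cells. TRAF6, a ligase of the TLR and MAVS branches, had -2.65 ± 0.41 in knockdown (edgeR adjusted p = 0.000134) and -2.24 ± 0.41 in control cells (0.000568). TBK1, the kinase of IRF3, had -2.01 ± 0.30 in knockdown (0.000101) and -1.57 ± 0.30 in control cells (0.000837, and 0.0533 without replicate 3). RELA, a subunit of NF-kB, had -1.26 ± 0.22 in knockdown and -1.39 ± 0.22 in control cells, and IKBKB, a kinase of its inhibitor, -1.28 ± 0.18 in knockdown and -1.34 ± 0.18 in control cells. TANK, an adaptor of TBK1, and TOMM70, an outer mitochondrial membrane receptor that binds MAVS, were lower as well. The TANK call ended in knockdown cells without replicate 1 or 3 (0.0729 and 0.0529) and in control cells without replicate 3 (0.111), and the TOMM70 call in control cells without triptolide replicate 1 (0.0593). With the block AZI2 and TRAF2, adaptors, and CHUK, a kinase of the NF-kB pathway, were also lower in both lines, and IRF3, NFKB1 and TBKBP1 in knockdown cells. The list's median was -0.53 in knockdown and -0.52 in control cells.

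Among 13 genes of the eIF2 kinase arm, 2 were lower and 1 higher with triptolide in knockdown cells, and 1 lower and 1 higher in control cells, counts near or below the 18.9% and 16% of all genes called lower. PPP1R15B, the constitutive partner of the eIF2 alpha phosphatase, had -1.87 ± 0.25 in knockdown (edgeR adjusted p = 3.79e-05) and -1.26 ± 0.25 in control cells (0.00109). DNAJC3, an inhibitor of PKR, was higher in control cells at 0.97 ± 0.29 (adjusted p = 0.0176), a call that ended without DMSO replicates 1 or 3 or triptolide replicate 2 (0.0708, 0.0644 and 0.172) and with scaling to total counts (0.355). EIF2B1 and EIF2B5, subunits of the exchange factor of eIF2, were called higher and lower in knockdown cells, and EIF2B1 turned to -0.19 with scaling to total counts. Both of these calls also ended without DMSO replicate 1 (0.0715 for EIF2B1 and 0.194 for EIF2B5). With the block EIF2B4 and TARBP2 were also lower and EIF2AK1, another eIF2 alpha kinase, higher in both lines, EIF2AK3, the kinase PERK, was lower and DNAJC3 higher in knockdown cells, and EIF2B5 was lower and EIF2B1 higher in control cells. The list's median was -0.14 in knockdown and 0.03 in control cells. Of 5 tested genes of the death pathway of ZBP1, 1 was lower in each line, the necroptosis effector MLKL, at -0.88 ± 0.21 in knockdown and -0.85 ± 0.21 in control cells (0.0732 and 0.0862 without replicate 1). With the block the kinase RIPK1 was also higher in both lines and the adaptor FADD lower in control cells.

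Of the 30 core interferon-stimulated genes, 2 were called lower with triptolide in knockdown cells and 1 in control cells. These shares were below the 18.9% and 16% of all genes called lower. IRF9, a subunit of the interferon-activated factor ISGF3, was lower in both lines, and IFIT3 in knockdown cells. These calls ended without DMSO replicate 1 in knockdown cells (0.0579 for IFIT3 and 0.0842 for IRF9) and without triptolide replicate 1 in control cells (0.0536 for IRF9). With the block, 16 were lower and 5 higher in knockdown cells, and 12 lower and 5 higher in control cells. Of all genes, the block called 28.1% lower and 29.1% higher in knockdown cells, and 26% lower and 26.1% higher in control cells. CMPK2, DTX3L, IFI44L, IFIT1, IFIT2, IFIT3, IRF9, OASL, PARP9, SAMD9, SAMD9L and XAF1 were lower and BST2, HERC6, IFI27, IFI6 and STAT2 higher in both lines, and IFI44, OAS1, RSAD2 and USP18 were lower in knockdown cells. The list's median without the block was -1.03 in knockdown and -0.58 in control cells. Of the 4 tested interferons and chemokines and the 3 other nucleic acid sensors tested, 0 were called in either line without the block, and CXCL10 in knockdown and IFNL2 in control cells were lower with it. IFNB1, the gene of interferon beta, had 30 counts over all 18 libraries. Between knockdown and control cells, 0 genes of these 7 lists were called in any treatment without the block. With it, IFI44, IFI44L and RSAD2 were higher in the knockdown than in control cells both untreated and with DMSO, and IFI44L with triptolide. Over the mean of the 3 treatments 8 of the 30 were, with CMPK2, IFI27, MX1, OAS2 and XAF1 beside these 3, at a list median of 0.31 and beside 3.39% of all genes called in either direction.

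By replicate number, 10 of 13 helicase regulators, 15 of 17 signalling genes and 12 of 13 eIF2 arm genes were called, beside 60.7% of all genes, with 5, 8 and 5 of them lower in replicate 3 than in replicate 1. Their medians of replicate 3 minus replicate 1 were -0.03, 0.02 and 0.18, beside -1.39 for the 6 tested sensors. All 4 tested interferons and chemokines were called lower in replicate 3 (median -2.82), as were all 3 other nucleic acid sensors (-0.78). Of 5 tested leukocyte markers 3 were called lower (-0.55), and of 4 stromal markers 2 (-0.62), shares near or below that of all genes called. Of 10 luminal markers 7 were called, 1 of them lower in replicate 3 (median 0.20). Of 5 tested genes of the ZBP1 death pathway 2 were called, each lower (-0.08).

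Genes with the most similar profile to each sensor were found by the mean absolute difference of centred log2(CPM + 1) values over the 18 libraries, among 14287 genes with a mean of at least 1 CPM. For EIF2AK2 they were DTX3L at 0.187, CGNL1 at 0.239 and YPEL2 at 0.257, beside a median of 0.698 over all genes compared. For IFIH1 they were PARP9 (0.134), SP100 (0.17) and PARP14 (0.194), beside a median of 0.946. For RIGI they were IFIT5 (0.256), IFIT2 (0.413) and SAMD9L (0.473), beside a median of 1.48. DHX58 had OAS3 (0.182), EPSTI1 (0.254) and HERC6 (0.292), beside a median of 0.923. TLR3 had GIMAP2 (0.225), C8orf58 (0.231) and SP110 (0.262), beside a median of 0.753. MAVS had SLC20A2 (0.0821), KDM2A (0.0831) and KANSL3 (0.0904), beside a median of 0.368. Between sensors, EIF2AK2 and TLR3 were the closest pair at 0.3, and RIGI and MAVS the farthest at 1.35. TLR3 lay at 0.2 to 6.77 CPM, where the added 1 narrows log2 differences, so its distances depend on that offset. With triptolide in knockdown cells the edgeR log2 differences from DMSO were -2.59 for TLR3 and -0.92 for EIF2AK2. The distances describe libraries that share replicate numbers and treatments.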

How the data were processed

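RNA from 18 cultures, 3 in each of 6 groups, was sequenced as stranded total RNA libraries. Reads were aligned with STAR 2.4.2a to hg19 and counted with HTSeq 0.6.1, per the submitters' processing notes, which also name DESeq2 1.4.5 and R 3.1. The strand setting of HTSeq and the annotation release are not given in the sources used here. The authors deposited raw counts per gene ID, and 97.6% of the 60252 IDs matched GENCODE 44. The 5 tallies of reads not assigned to a single gene were left out.

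Counts were fitted in edgeR 4.0.16 (R 4.3.3, limma 3.58.1) with the quasi-likelihood F test, TMM scaling and the default filter by group, which left 21285 genes. All 18 libraries entered 1 fit with 12 residual degrees of freedom, or 10 with the replicate number as a block. A gene was called at a Benjamini-Hochberg adjusted p under 0.05 over all genes tested, in each of 10 comparisons. Alternatives in edgeR were scaling by relative log expression, to total counts or to mitochondrial mRNAs, no filter, only the libraries compared, and leaving out libraries. The DESeq2 1.42.0 test was a further alternative. The fits were tested on simulated data. Figures were drawn with matplotlib 3.10.9 in Python 3.11.15.

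The replicate numbers pair the libraries. Residuals from group means correlated at 0.43 to 0.849 between libraries of equal number (45 pairs), and at -0.665 to -0.0189 between others (90 pairs). Each of the 18 libraries correlated best with those of its own number. No 2 libraries of a group agreed within sampling noise. The 95% Wilson interval of a gene's share of its library was at most 0.019 percentage points to either side, and the intervals and the floor of 3 counts cover counting error only.

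The named genes were all 7 sensors, ADAR, genes of the pathway lists called without or with the block, and for each sensor the 3 genes of most similar profile. The members, lists and tests were chosen with earlier results of these data known.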

Additional observations from a re-analysis of the deposited data

How the results depend on the processing

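The replicate numbers pair the libraries, and the replicate block raised the number of sensors called under triptolide to 5 in knockdown and 5 in control cells, against 3 and 1 without it. It changed no other count of sensors. In knockdown cells mitochondrial mRNA scaling gave 5, fits that left out libraries gave 0 to 2, and the block without replicate 1, 2 or 3 gave 5, 5 and 4, losing MAVS without replicate 3 (adjusted p = 0.06). In control cells scaling to total counts gave 2, to mitochondrial mRNAs 2, DESeq2 2 and no filter 4. Fits that left out libraries gave 0 to 2 there, and the block without replicate 1, 2 or 3 gave 4, 2 and 5, losing EIF2AK2 without replicate 1, and EIF2AK2, IFIH1 and TLR3 without replicate 2. Without a filter MAVS lost its call (adjusted p = 0.12 in knockdown and 0.0594 in control cells), as with only the libraries compared (0.072 and 0.0872). For knockdown against control over the 3 treatments the block without replicate 2 gave 1 sensor, and a fit of only the libraries compared is the same fit. Scaling to mitochondrial mRNAs ended the ADAR call there (adjusted p = 0.566). The replicate number called 5 sensors in every alternative but mitochondrial scaling, which gave 6.

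Some differences turned. The block turned the TLR3 difference between lines to 0.127 (0.222 and 0.413 without replicate 1 or 2) and the triptolide difference of DHX58 in knockdown cells to 0.146 (0.238 and 0.426 without replicate 1 or 2). With the block and without replicate 2 that of DHX58 in control cells was 0.207, MAVS between lines was -0.00427 (-0.00366 without replicate 3), and the MAVS interaction without replicate 1 was -0.0816. The interaction of DHX58 turned to -0.0827 with total counts and -0.533 with mitochondrial mRNAs, and that of MAVS to -0.515 with mitochondrial mRNAs. For ZC3HAV1, PPP1CA and EIF2B1 the triptolide differences in knockdown cells were -0.101, -0.0222 and -0.19 with total counts, and -0.783, -0.767 and -0.876 with mitochondrial mRNAs. In fits that left out libraries without the block, the knockdown difference over the 3 treatments ran from -0.321 to 0.39 for TLR3, -0.00654 to 0.0528 for MAVS, -0.12 to 0.408 for IFIH1, -0.00609 to 0.339 for DHX58 and -0.119 to 0.674 for RIGI. The triptolide difference ran from -0.598 to 0.243 for DHX58 in knockdown cells, and in control cells from -0.775 to 0.263 for DHX58, -1.34 to 0.164 for IFIH1 and -0.581 to 0.0482 for ADAR. The interaction ran from -0.39 to 0.654 for DHX58, -0.0804 to 0.172 for MAVS, -0.924 to 0.168 for EIF2AK2, -1.16 to 0.348 for IFIH1 and -1.57 to 0.0312 for RIGI. Without a change of sign, the triptolide difference in control cells ran from -3.23 to -1.63 for RIGI, -2.1 to -0.544 for TLR3 and -1.1 to -0.00695 for EIF2AK2, and in knockdown cells from -1.24 to -0.537 for EIF2AK2 and -1.43 to -0.521 for IFIH1. The causes were not tested.

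Counts over all genes moved more. Knockdown against control gave 21 genes untreated, 123 with the block, 13 with mitochondrial scaling, 54 by DESeq2, 91 without a filter and 5 with only the libraries compared. With DMSO it gave 20, against 129 with the block, 43 by DESeq2, 74 without a filter and 4 with only the libraries compared. With triptolide it gave 14, against 137 with the block, 8 with mitochondrial scaling, 40 by DESeq2, 60 without a filter and 8 with only the libraries compared. The mean of the 3 gave 178, against 721 with the block, 75 with mitochondrial scaling, 311 by DESeq2 and 320 without a filter. Triptolide against DMSO gave 7589 genes in knockdown cells, 12163 with the block and 12240 with mitochondrial scaling, and 6565 in control cells, 11089 with the block. The interaction gave 0, against 1 with the block, 1 by DESeq2 and 3 without a filter, and DMSO against untreated knockdown cells gave 0, against 25 without a filter. Fits that left out libraries, without the block, gave 4 to 16 genes for knockdown against control untreated, 3 to 16 with DMSO, 2 to 17 with triptolide and 32 to 171 for the mean of the 3. For triptolide against DMSO they gave 4551 to 7265 in knockdown and 3581 to 6132 in control cells. Depth limits TLR3 and ZBP1, with 4 to 33 counts of TLR3 and 0 to 9 of ZBP1 per triptolide library.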
